A study of Mus musculus with 24 samples.

Results

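The LINC complex bridges the nuclear envelope. SUN domain proteins sit in the inner nuclear membrane, where they meet the lamina, and bind in the lumen between the membranes the short KASH tails of nesprins, which span the outer nuclear membrane and hold actin, microtubule motors or plectin on the cytoplasmic side. Through this bridge cells position the nucleus and pass mechanical force to it. The genes described here were chosen by name: Sun1, Sun2 and Spag4 encode SUN domain proteins, and Syne1, Syne2 and Syne3 encode nesprin-1, nesprin-2 and nesprin-3. All 6 were found among the 35976 genes of every library, and all 6 passed the filter on low counts in every expression comparison below.

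The libraries are RNA-seq of CT26, a mouse colon carcinoma cell line, in a line labelled Sun1 knockout and in control lines that carry Sun1. Knockout cells in culture gave 1 library, against 1 library each of control lines 1 and 2. Whole tumors, grown under the skin of BALB/c mice and collected at day 14, gave 7 libraries from knockout cells and 8 from control line 1. From tumors dissociated to single cells, tumor cells were isolated with a kit, giving 2 purified knockout libraries, 2 of control line 1 and 2 of control line 2. The labels name 1 knockout line, so the loss of Sun1 and other traits of that line cannot be told apart. They do not say whether numbered libraries came from separate animals, and the spread behind each p-value is that between these samples, which may be technical.

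Depth, as the summed expected counts of a library, was 18832201 to 20716917 for cultured cells, 14140769 to 24651279 for whole tumors and 17068356 to 22593612 for purified cells. Whole tumors held host cells: 14 leukocyte markers summed to 465 to 976 CPM (counts scaled to library size) in knockout tumors, against 329 to 789 CPM in control tumors, and to at most 11.96 CPM in purified and cultured cells. The sum of 8 endothelial markers was 86.5 to 136 CPM in knockout tumors, against 72.1 to 91.2 CPM in control tumors, and at most 2.16 CPM in cells. The sum of 12 skeletal muscle markers, genes of a tissue rich in nesprins, was 8.05 to 161 CPM in knockout tumors, against 6.47 to 22.1 CPM in control tumors, and reached 43.6 CPM in 1 of the 2 purified knockout libraries. In culture this muscle sum was 8.28 CPM in the knockout, against 1.86 CPM in control line 1 and 1.65 CPM in control line 2. The sum of 8 fibroblast markers was 2189 to 3442 CPM in knockout tumors, with a median of 2301 CPM, against 2361 to 3416 CPM in control tumors, with a median of 2811 CPM. The CT26 lines express the collagens among these markers themselves, and the sums were 1386 to 5961 CPM over the cultured and purified libraries. In culture Col1a2 averaged 990 CPM in the knockout and 1244 CPM in controls, while Dcn, Lum, Dpt and Pi16 were at most 4.11 CPM. In tumors single markers went both ways. Dcn averaged 202 CPM in the knockout and 410 CPM in controls, and Dpt 21.1 and 8.52 CPM. The part of host cells in the results from tumors was not tested. There was 1 fit with host genes as a covariate, which ran with genotype and so cannot be told apart from it. In bulk RNA fewer cells of a type and less RNA per cell cannot be told apart. Of 6 epithelial markers, Epcam and Krt19 were at 0 in all purified and cultured libraries, and Krt8, Cdh1 and Cldn7 were at most 1.88 CPM. Krt18 was 0.339 to 0.592 CPM in purified and cultured knockout cells, against 27.8 to 119 CPM in those of the control lines.

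In whole tumors 5 of the 6 genes were lower in the knockout and none was higher (edgeR quasi-likelihood test, Benjamini-Hochberg adjusted p under 0.05 over 13752 genes). In that comparison 37.1% of all genes tested were called, 19.0% as lower and 18.1% as higher. Besides Sun1, the targeted gene, the lower ones were Sun2, Syne1, Syne2 and Syne3, and Spag4 did not pass. The median log2 fold change of the 6, with Sun1 included, was -0.53, beside 0.01 over all genes tested. In purified tumor cells 2 of the 6 were called, Sun1 and Sun2, both lower, where 4.55% of 12476 genes were called, 2.29% as lower and 2.26% as higher. In culture, with 1 knockout library, edgeR called 0 of 12175 genes (0%), 659 genes and 4 of the 6 had an unadjusted p under 0.05, and DESeq2 called 44 genes, Sun1 among them.

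Sun1, at chr5:139200637-139249840 on the plus strand (GRCm38, GENCODE M21), is the targeted gene. In culture it had 33.7 CPM in the knockout library, against 122 CPM in control line 1 and 110 CPM in control line 2. In tumors it had a lowest, median and highest value of 50.5, 57.9 and 64.8 CPM in the knockout, against 169, 178 and 192 CPM in controls. In purified cells it had 50.9 and 55.5 CPM in the knockout, against 174 and 214 CPM in control line 1 and 167 and 165 CPM in control line 2. The knockout libraries were thus below every control library in each setting, and none was near 0. In tumors Sun1 was 3.09-fold lower, at -1.63 ± 0.06 on the log2 scale (SE; edgeR adjusted p = 4.56e-14), the smallest p of all genes tested there. The difference was -1.75 ± 0.14 in purified cells (edgeR adjusted p = 0.000401) and -1.79 ± 0.22 in culture (edgeR adjusted p = 0.150; DESeq2 adjusted p = 3.41e-07). Counts cover the whole gene and the labels do not say which part was deleted, so the remaining Sun1 reads cannot be assigned to intact or altered transcripts. Sun1 shares 302 exonic bases with the antisense gene 4930520M14Rik, and the library protocol states no strand.

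Sun2, at chr15:79724070-79742536 on the minus strand, encodes the other SUN protein that most cells use, partly redundant with Sun1 in mice. The knockout had 75.5 CPM in culture, against 104 CPM in control line 1 and 113 CPM in control line 2. Knockout tumors had a lowest, median and highest value of 67.2, 78.3 and 90.9 CPM, against 105, 115 and 135 CPM in control tumors. Knockout purified cells had 102 and 93.4 CPM, against 161 and 171 CPM in control line 1 and 178 and 176 CPM in control line 2. As for Sun1, the knockout lay wholly below the controls in all 3 settings. Sun2 was 1.46-fold lower in knockout tumors, at -0.55 ± 0.07 on the log2 scale (edgeR adjusted p = 9.68e-06). It was 1.75-fold lower in knockout purified cells, at -0.80 ± 0.11 (edgeR adjusted p = 0.00367), and this call was lost without either knockout library (edgeR adjusted p = 0.0518 without replicate 1 and 0.111 without replicate 2). In culture the difference was -0.53 ± 0.20 (edgeR adjusted p = 0.902). Sun2 shares 147 exonic bases with the antisense gene Gm16575.

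Spag4, at chr2:156065175-156070617 on the plus strand, encodes a SUN domain protein best known from the testis. It was scarce, with 12 to 54 expected counts per library. Knockout culture had 2.66 CPM, against 1.59 CPM in control line 1 and 2.32 CPM in control line 2. Knockout tumors ranged from 1.01 to 2.498 CPM with a median of 1.72 CPM, inside the control tumors' 0.706 to 2.83 CPM with a median of 1.16 CPM. Purified knockout cells had 1.47 and 1.31 CPM, against 0.727 and 0.688 CPM in control line 1 and 1.16 and 1.39 CPM in control line 2. The groups overlapped in tumors and purified cells. Its log2 fold changes were 0.43 ± 0.63 in culture, 0.42 ± 0.30 in tumors and 0.48 ± 0.47 in purified cells (edgeR adjusted p = 0.971, 0.280 and 0.589), none of which passed.

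**Figure D1:**
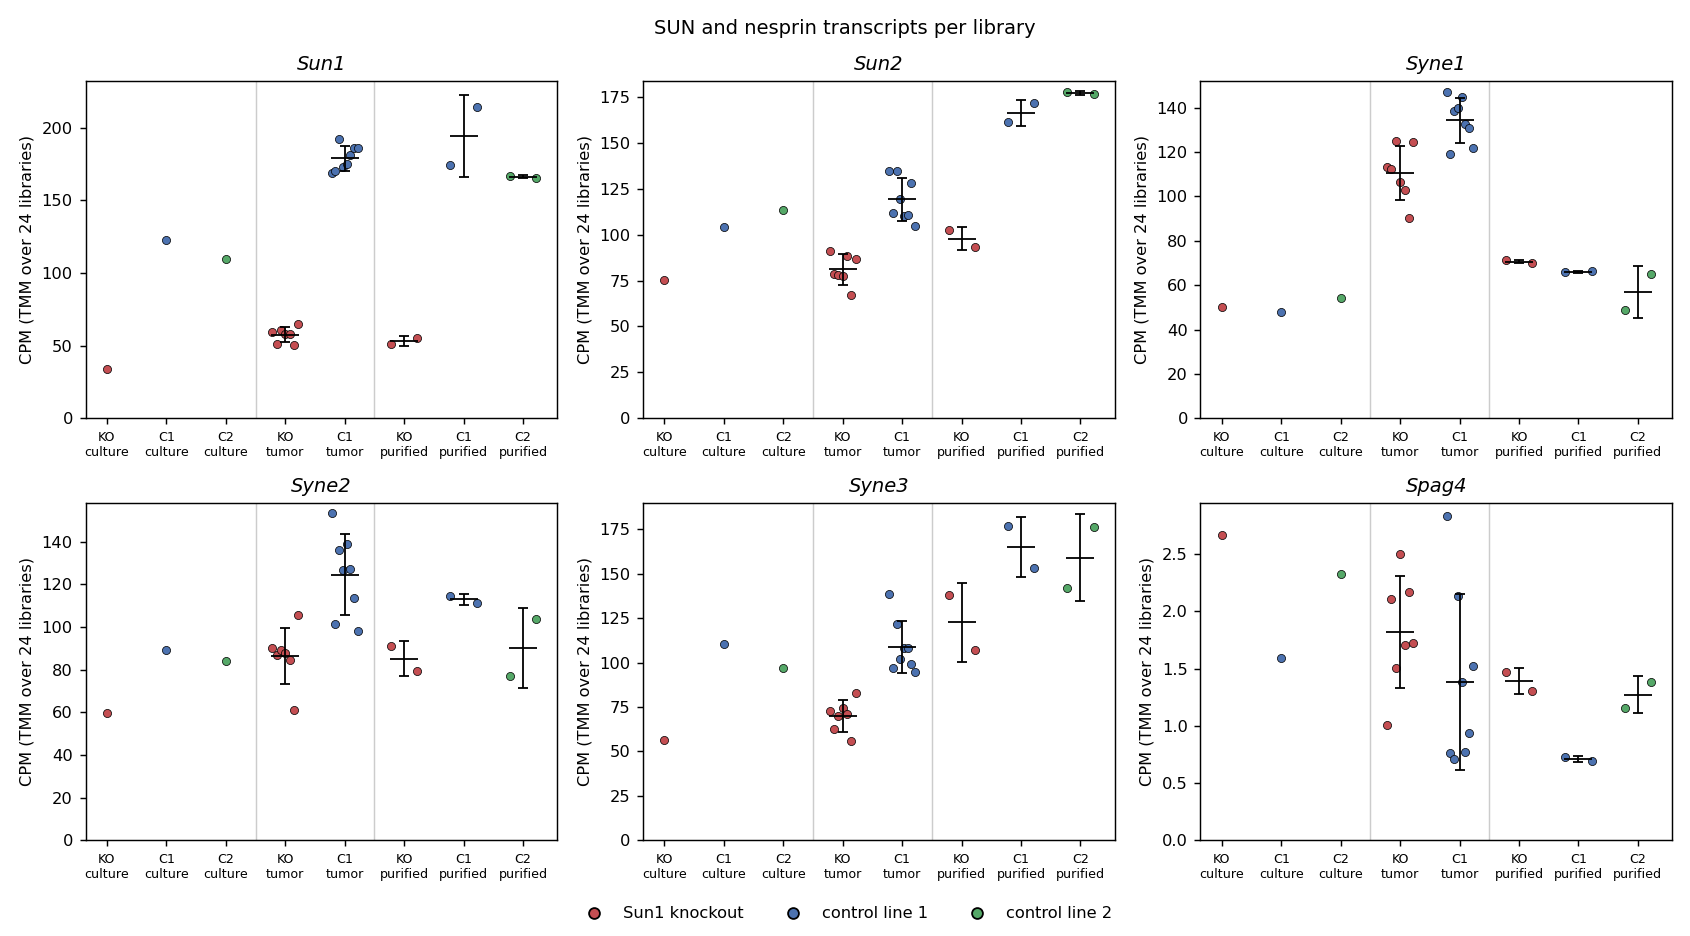
CPM (TMM scaling over 24 libraries) of each gene on the vertical axes, 1 point per library, by group; bars are mean ± SD where a group has more than 1 library, KO is the knockout and C1 and C2 are control lines 1 and 2. Sun1 and Sun2 lay lower in every knockout library than in every control library of the same setting, while Syne1 stood higher in tumors than in cells of either genotype.

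The nesprins share the end of their coding sequence, which encodes the KASH tail that SUN proteins grip. The last 90 bases of the coding sequence of the longest complete transcript are shown because they are the stretch that makes these 3 very different genes partners of Sun1 and Sun2. They are from GENCODE M21 transcripts on GRCm38, with the last 4 codons before the stop in capitals.
Syne1 (chromosome 10): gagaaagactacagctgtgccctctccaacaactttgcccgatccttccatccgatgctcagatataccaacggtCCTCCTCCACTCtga
Syne2 (chromosome 12): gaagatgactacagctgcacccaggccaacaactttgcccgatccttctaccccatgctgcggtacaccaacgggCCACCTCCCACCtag
Syne3 (chromosome 12): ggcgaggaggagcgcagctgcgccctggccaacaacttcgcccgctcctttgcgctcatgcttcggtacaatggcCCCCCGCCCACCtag
Each end has 3 proline codons in the capitals, the residues known to lie in the SUN pocket. Over the 90 bases, Syne1 and Syne2 were identical at 68 (75.6%). Syne2 and Syne3 were also identical at 68 (75.6%) and Syne1 and Syne3 at 58 (64.4%), each with a gap of 1 codon in both sequences. Away from this end they differ greatly in size: the coding sequences hold 8799 codons in Syne1, 6874 in Syne2 and 975 in Syne3.

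Syne1, at chr10:5020917-5551482 on the minus strand, encodes nesprin-1, whose long forms bind actin and whose short forms lack that end. In culture the knockout had 50.2 CPM, against 47.9 CPM in control line 1 and 54.3 CPM in control line 2. Knockout tumors had a lowest, median and highest value of 90.2, 112 and 125 CPM, against 119, 136 and 147 CPM in control tumors. Purified knockout cells had 71.3 and 70.1 CPM, against 65.8 and 66.4 CPM in control line 1 and 48.6 and 65.3 CPM in control line 2. The knockout was within the control range in culture, overlapped with it in tumors and lay above it in purified cells. The log2 fold change was -0.27 ± 0.07 in tumors (edgeR adjusted p = 0.00437), 0.21 ± 0.14 in purified cells (edgeR adjusted p = 0.427) and -0.03 ± 0.21 in culture (edgeR adjusted p = 0.993). The tumor effect minus the purified effect was -0.47 ± 0.14 (edgeR interaction, adjusted p = 0.0430), in a test that called 8.27% of 15094 genes, 4.63% with a lower and 3.64% with a higher effect in tumors. Of the 6 genes only Syne1 passed this test. The call was lost without knockout purified replicate 1 (edgeR adjusted p = 0.151), without replicate 2 (0.164), without control line 2 purified replicate 1 (0.0749), with control line 1 as the only control (0.0965) and with no filter on low counts (0.0530), at differences of -0.49 to -0.37.

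Syne2, at chr12:75818134-76110926 on the plus strand, encodes nesprin-2, like nesprin-1 a giant actin-binding form in its full length. Knockout culture had 59.7 CPM, against 89.4 CPM in control line 1 and 84.2 CPM in control line 2. Knockout tumors had a lowest, median and highest value of 61.1, 87.6 and 106 CPM, against 98.4, 127 and 154 CPM in control tumors. Purified knockout cells had 91.0 and 79.5 CPM, against 115 and 111 CPM in control line 1 and 77.0 and 104 CPM in control line 2. The knockout lay wholly below the controls in culture, and the groups overlapped in tumors and purified cells. Syne2 was 1.43-fold lower in knockout tumors, at -0.52 ± 0.10 on the log2 scale (edgeR adjusted p = 0.00102). In purified cells it was -0.25 ± 0.16 against both lines together (edgeR adjusted p = 0.413), -0.39 against line 1 alone (0.0104) and -0.08 against line 2 alone (0.758). In culture it was -0.55 ± 0.20 (edgeR adjusted p = 0.902).

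Syne3, at chr12:104929933-105009809 on the minus strand, encodes nesprin-3, a short nesprin that binds plectin and so reaches intermediate filaments. The knockout had 56.3 CPM in culture, against 110 CPM in control line 1 and 97.2 CPM in control line 2. In tumors it had a lowest, median and highest value of 55.6, 71.1 and 83.1 CPM, against 94.8, 105 and 138 CPM in controls. In purified cells it had 138 and 107 CPM, against 177 and 153 CPM in control line 1 and 142 and 176 CPM in control line 2. All knockout libraries lay below all controls in each setting. Syne3 was 1.54-fold lower in knockout tumors, at -0.63 ± 0.09 on the log2 scale (edgeR adjusted p = 1.92e-05). The difference was -0.40 ± 0.14 in purified cells (edgeR adjusted p = 0.156) and -0.89 ± 0.21 in culture (edgeR adjusted p = 0.643). Against control line 1 alone the purified value was -0.42 (edgeR adjusted p = 0.0480) and against line 2 alone -0.37 (0.104).

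Groups that did not overlap were common among all genes, most of all where libraries were few. In tumors 3 of the 6 genes lay wholly below the controls, Sun1, Sun2 and Syne3, as did 6.08% of all genes tested, and 3.12% lay wholly above. In purified cells the same 3 lay wholly below and Syne1 wholly above, beside 18.1% below and 16.5% above among all genes. In culture Sun1, Sun2, Syne2 and Syne3 lay below and Spag4 above, beside 32.2% and 35.9%. The 5 tumor calls held without each of the 15 libraries in turn. With the mean log2 CPM of Ptprc (leukocytes) and Pecam1 (endothelium) as a covariate, only Sun1 stayed called (edgeR adjusted p = 1.37e-07). Sun2 then had a log2 fold change of -0.57 (0.0689), Syne3 -0.47 (0.246), Syne2 -0.39 (0.483) and Syne1 -0.20 (0.592), and 196 genes in all were called, against 5107 without it. Ptprc was itself 188 ± 33.0 CPM in knockout tumors and 123 ± 25.3 CPM in control tumors (SD, n = 7 and 8), and Pecam1 50.1 ± 5.47 CPM and 34.9 ± 3.58 CPM. The genotypes did not overlap in Ptprc (156 to 241 CPM in the knockout, 72.2 to 153 CPM in controls) or in Pecam1 (41.5 to 57.6 CPM, 28.7 to 40.7 CPM). With this covariate the SE rose from 0.06 to 0.12 for Sun1 and from 0.07 to 0.15 for Sun2. Because the covariate ran with genotype, this fit cannot tell host content and knockout apart.

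**Figure D2:**
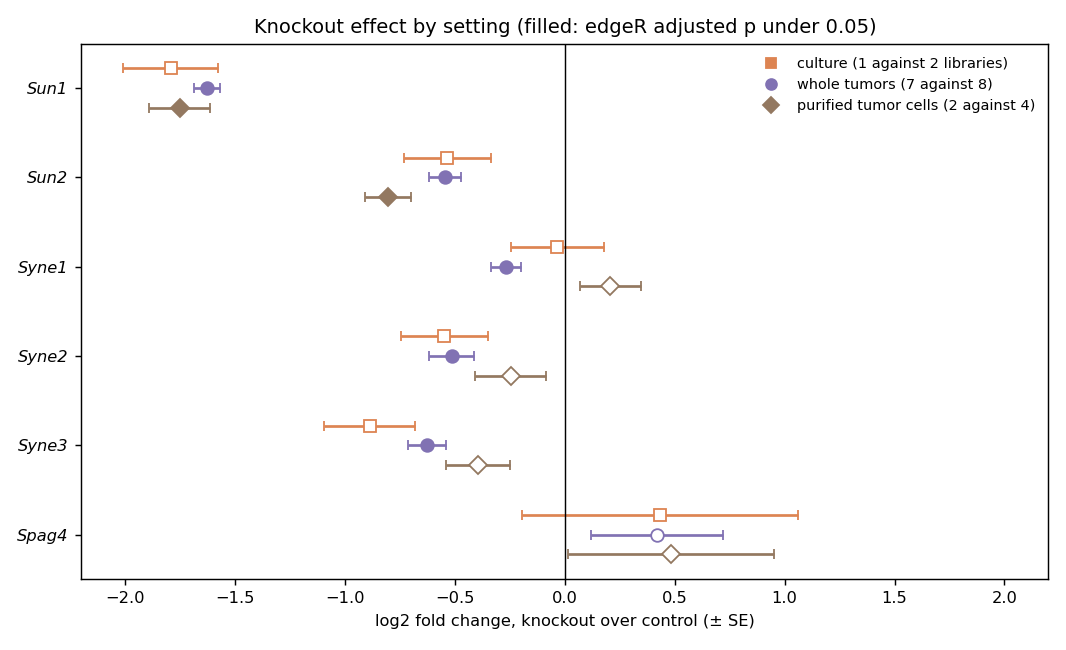
Log2 fold change of knockout over control with its SE (horizontal axis) for the 6 genes in culture, whole tumors and purified tumor cells; filled symbols have an edgeR adjusted p under 0.05. Sun1 lay between -1.79 and -1.63 in the 3 settings, and Syne1 was at -0.27 in tumors and 0.21 in purified cells.

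The balance among the SUN genes was compared per length, as TPM (transcript abundance scaled for length, as the authors deposited it), with no test. In knockout tumors Sun1, Sun2 and Spag4 together had 43.3 ± 3.67 TPM, against 95.5 ± 10.3 TPM in control tumors (SD, n = 7 and 8). In purified cells the sum was 52.00 and 52.8 TPM in the knockout, against 111 to 123 TPM in control line 1 and 99.6 to 111 TPM in control line 2. The sum was 40.1 TPM in knockout culture, against 80.3 TPM in control line 1 and 82.9 TPM in control line 2. Every knockout library was thus below every control library. Sun2 made up 58.0% ± 2.27 of the SUN sum in knockout tumors, against 41.4% ± 2.42 in control tumors. The ratio of Sun2 to Sun1 in TPM was 1.39 to 1.67 in knockout tumors, against 0.612 to 0.875 in control tumors. It was 1.84 and 2.19 in knockout purified cells, against 0.876 to 1.01 in control line 1 and 1.16 to 1.17 in control line 2, and 2.44 in knockout culture, against 0.930 and 1.13. Sun2 was therefore the most abundant SUN transcript in each knockout library, although its own level was lower there. It also led in the cultured and purified libraries of control line 2 and in purified replicate 1 of control line 1. Spag4 made up 3.86% ± 1.20 of the sum in knockout tumors, against 1.41% ± 0.740 in control tumors. A lower Sun1 by itself raises these shares of Sun2 and Spag4 and the ratio, as Sun1 is part of each. Spag4 itself was not called in tumors (log2 fold change 0.42 ± 0.30, edgeR adjusted p = 0.280).

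Among the nesprins, Syne3 was the most abundant per length in cells, and Syne2 the least in every group, by the deposited TPM. For Syne2 that TPM rests on 1 annotated transcript of 21718 bases. GENCODE M21 has 10 protein-coding transcripts of Syne2, of 440 to 21704 bases, and any shorter forms would be undercounted per length. The nesprin shares below have the same limit. In purified cells Syne3 averaged 29.8 TPM in the knockout, against 39.1 TPM in control line 1 and 35.5 TPM in control line 2, while Syne1 averaged 8.33, 7.65 and 6.38 TPM in that order of lines and Syne2 4.78, 6.16 and 4.65 TPM. In knockout tumors the mean of Syne1, 15.3 ± 1.40 TPM, and that of Syne3, 15.2 ± 2.15 TPM, did not differ beyond their spread (SD, n = 7). In control tumors Syne3 led with 25.4 ± 5.59 TPM, ahead of Syne1 with 16.3 ± 2.28 TPM and Syne2 with 6.70 ± 1.56 TPM (SD, n = 8). Syne1 made up 44.1% ± 4.57 of the nesprin sum in knockout tumors, against 34.0% ± 2.69 in control tumors. The corresponding shares were 16.02% and 23.3% in knockout purified cells, against 13.9% to 15.1% in control line 1 and 12.8% to 14.4% in control line 2. In culture they were 25.6% in the knockout, against 14.1% in control line 1 and 16.6% in control line 2. Each knockout share lay above the control shares of its setting, and how often shares of other genes part likewise was not computed. A lower Syne3 or Syne2 by itself raises the share of Syne1, as each is part of the sum. Syne1 itself was lower in knockout tumors, at -0.27 ± 0.07 on the log2 scale by edgeR. Its TPM also depends on its weighted transcript length, given below.

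**Figure D3:**
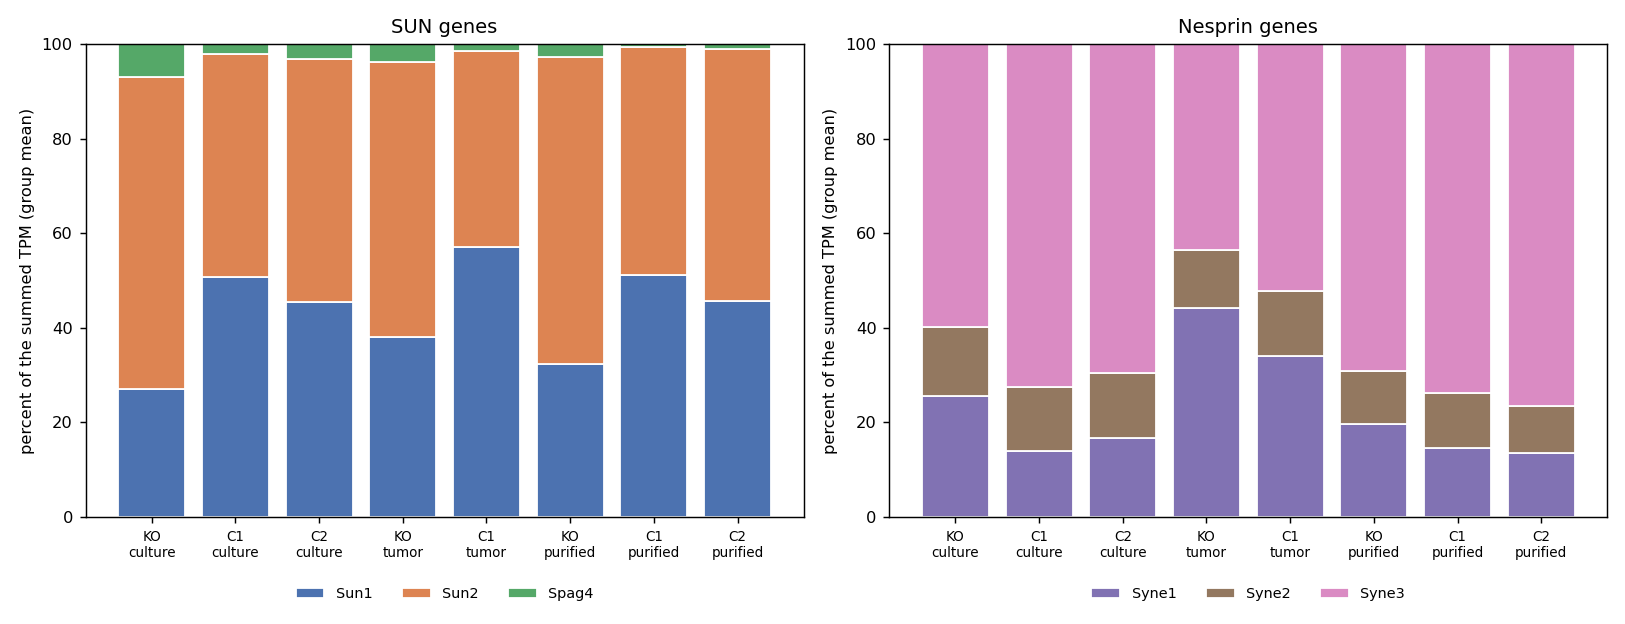
Group means of the share of summed TPM (percent, vertical axes) held by each SUN gene (left) and each nesprin gene (right), by group; KO is the knockout, C1 and C2 the control lines. Sun2 held 58.0% of the SUN sum in knockout tumors against 41.4% in control tumors, and Syne1 held 44.1% of the nesprin sum against 34.0%. The SUN sum includes Sun1, the targeted gene, and Syne2 is scaled by 1 fixed length of 21718 bases. The nesprin sum includes Syne3, which was lower in knockout tumors.

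The 3 settings were compared within lines. In purified tumor cells 5 of the 6 genes were higher than in culture of the same line and Spag4 was lower (edgeR with line as a term, 12287 genes, of which 44.3% were called, 22.6% as higher and 21.7% as lower). Syne3 was 1.75-fold higher in purified cells (log2 fold change 0.81 ± 0.13; edgeR adjusted p = 0.000347), Sun1 1.57-fold (0.65 ± 0.08; 6.40e-05) and Sun2 1.49-fold (0.58 ± 0.08; 0.000131). Syne1 was higher by 0.35 ± 0.11 (edgeR adjusted p = 0.0207) and Syne2 by 0.33 ± 0.11 (0.0269). Spag4 was 1.95-fold lower (log2 fold change -0.96 ± 0.29; edgeR adjusted p = 0.0158). The calls for Spag4, Syne1 and Syne2 rest on few libraries. Spag4 lost its call without the cultured library of any of the 3 lines (edgeR adjusted p = 0.0577 to 0.0734). Syne1 lost its call without the cultured knockout (0.114), cultured control line 1 (0.131) or control line 2 purified replicate 2 (0.0526). Syne2 lost its call without the cultured knockout (0.158), cultured control line 1 (0.107), knockout purified replicate 1 (0.0602), control line 1 purified replicate 1 (0.0523) or control line 2 purified replicate 2 (0.0675).

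Between whole tumors and purified cells of the same line, Syne1 and Syne3 passed in both the knockout and control line 1, in opposite directions. In knockout tumors 1 gene was higher and 1 lower than in knockout purified cells, where 56.4% of 14569 genes were called, 31.1% as higher and 25.3% as lower. In control line 1 tumors 1 was higher and 2 were lower than in purified control line 1, where 53.9% of 14331 genes were called, 30.2% as higher and 23.7% as lower. Syne1 was 1.60-fold higher in knockout tumors (log2 fold change 0.68 ± 0.11; edgeR adjusted p = 0.000130) and 2.09-fold higher in control tumors (1.06 ± 0.10; 1.90e-07) than in their purified cells. Syne3 was 1.72-fold lower in knockout tumors (log2 fold change -0.78 ± 0.12; edgeR adjusted p = 9.78e-05) and 1.48-fold lower in control tumors (-0.56 ± 0.12; 0.000716). Sun2 was lower in control tumors at -0.44 ± 0.10 on the log2 scale (edgeR adjusted p = 0.000938) and had -0.24 ± 0.10 in knockout tumors (0.0541). The knockout value for Sun2 passed without knockout tumor replicate 1 or 6 (edgeR adjusted p = 0.0453 and 0.0496) and with no filter on low counts (0.0338). Sun1, Syne2 and Spag4 passed in neither line, Spag4 with 0.41 ± 0.37 in the knockout (edgeR adjusted p = 0.357) and 0.98 ± 0.56 in control line 1 (0.151). Like Syne1, the leukocyte and endothelial sums given above were higher in tumors than in cells of both lines. Between the tumors, their medians were higher in the knockout, at 699 and 111 CPM, against 527 and 77.1 CPM in controls, while Syne1 was lower in the knockout. Their part in the level of Syne1 in tumors was not tested.

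**Figure D4:**
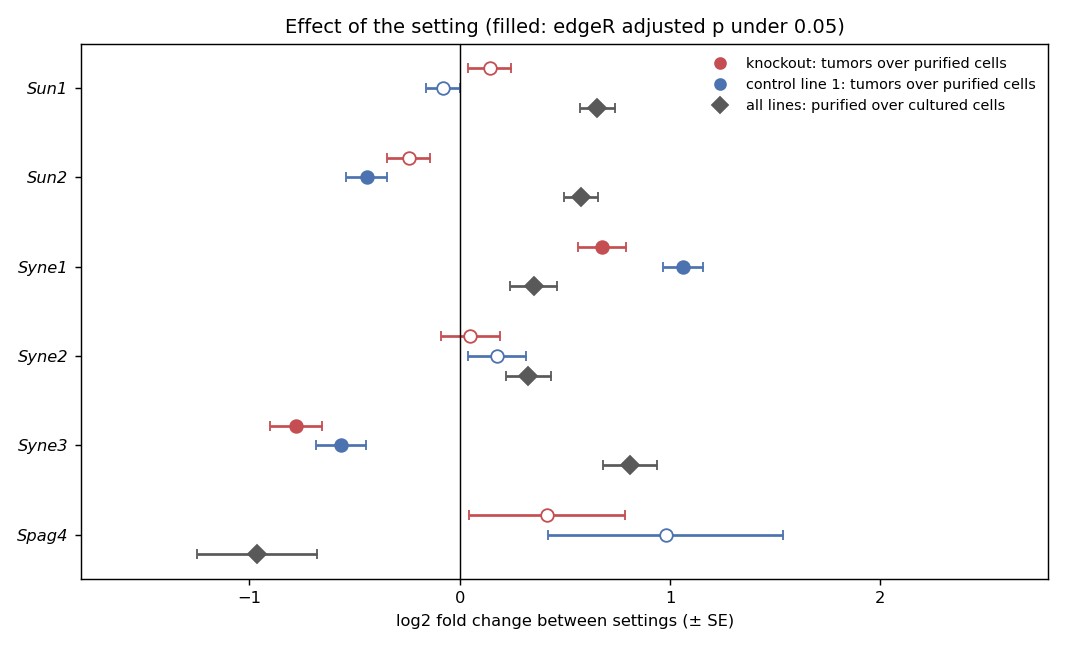
Log2 fold change with its SE (horizontal axis) of tumors over purified cells in the knockout and in control line 1, and of purified over cultured cells across lines; filled symbols have an edgeR adjusted p under 0.05. Syne1 was higher in tumors than in purified cells by 0.68 in the knockout and 1.06 in control line 1, and Syne3 was lower, at -0.78 and -0.56.

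Ordered over the 8 groups by mean CPM, Sun1 ran from 194 in purified control line 1 through 179 in control tumors and 166 in purified control line 2 to 122 and 110 in cultured control lines 1 and 2, and then to 57.5 in knockout tumors, 53.2 in purified knockout cells and 33.7 in knockout culture. The libraries of the leading 2 of these groups overlapped, as did those of knockout tumors and purified knockout cells. Sun2 ran from 177 in purified control line 2 and 166 in purified control line 1 through 119 in control tumors, 113 and 104 in cultured control lines 2 and 1 and 97.9 in purified knockout cells to 81.0 in knockout tumors and 75.5 in knockout culture. Control tumors at 105 to 135 CPM overlapped with the cultured control line 2, and the knockout culture fell among the knockout tumors. Syne1 was higher in every tumor, at 90.2 CPM or more, than in any library of cells, at 71.3 CPM or less. Syne3 was highest in purified control cells, at 142 to 177 CPM, ahead of purified knockout cells and all tumors, at 138 CPM or less. How many other genes separate the settings this fully was not counted. Between tumors and purified cells edgeR called 56.4% of all genes tested in the knockout and 53.9% in control line 1.

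The control lines, which both carry Sun1, were set against each other in purified cells. None of the 6 genes was called between control lines 2 and 1 by edgeR or DESeq2, where edgeR called 12.4% of 12135 genes, 5.08% as higher and 7.35% as lower. An unadjusted edgeR p under 0.05 was found for 1 of the 6, beside 29.6% of all genes. That gene was Syne2, at a log2 fold change of -0.32 ± 0.14 for line 2 over line 1 (edgeR adjusted p = 0.159). Spag4 had the largest value, 0.85 ± 0.54 (edgeR adjusted p = 0.323), and Sun1 had -0.22 ± 0.12 (0.249). Without control line 2 purified replicate 2, Syne2 passed at -0.54 (edgeR adjusted p = 0.00785) and Syne1 at -0.43 (0.0323). The lone control libraries in that fit are assumed to vary like the other line's.

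Transcript length gave a second readout. The deposited length is the mean over a gene's transcripts weighted by their estimated abundance, so it moves when isoform use moves. The authors' annotation held 27 transcripts for Sun1, 23 for Syne1, 5 for Syne3, 4 for Sun2 and 2 for Spag4, and 1 for Syne2, whose length of 21718 bases was therefore constant and not tested. Protein-coding transcripts of Syne1 in GENCODE M21 run from 2726 to 27908 bases. The weighted length of Syne1 was 6116, 8070 and 9517 bases at its lowest, median and highest in knockout tumors, against 8994, 9871 and 10522 bases in control tumors. The groups overlapped. The mean was 8102 ± 1050 bases in knockout tumors and 9779 ± 536 bases in control tumors (SD, n = 7 and 8). On the log2 scale that was -0.28 ± 0.07 (limma adjusted p = 0.0847, rank 254 of 9591 genes by p), which did not pass, in a test that called 0.636% of genes, 0.448% as shorter and 0.188% as longer. Without knockout tumor replicate 7 it passed at -0.32 (limma adjusted p = 0.0436). Purified knockout cells had 9426 and 11897 bases, against 10170 and 10669 bases in control line 1 and 9908 and 10606 bases in control line 2, a difference of 0.04 ± 0.10 (limma adjusted p = 1.00; 1 of 8588 genes called, 0.0116%). Knockout culture had 10577 bases, against 11351 and 11835 bases in control lines 1 and 2. Of the other genes with a variable length none was called by limma in either comparison, and their smallest unadjusted p was 0.0972. Because TPM divides by this length, Syne1 in TPM was 14.3 to 18.1 in knockout tumors, inside the 13.1 to 19.5 of control tumors.

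**Figure D5:**
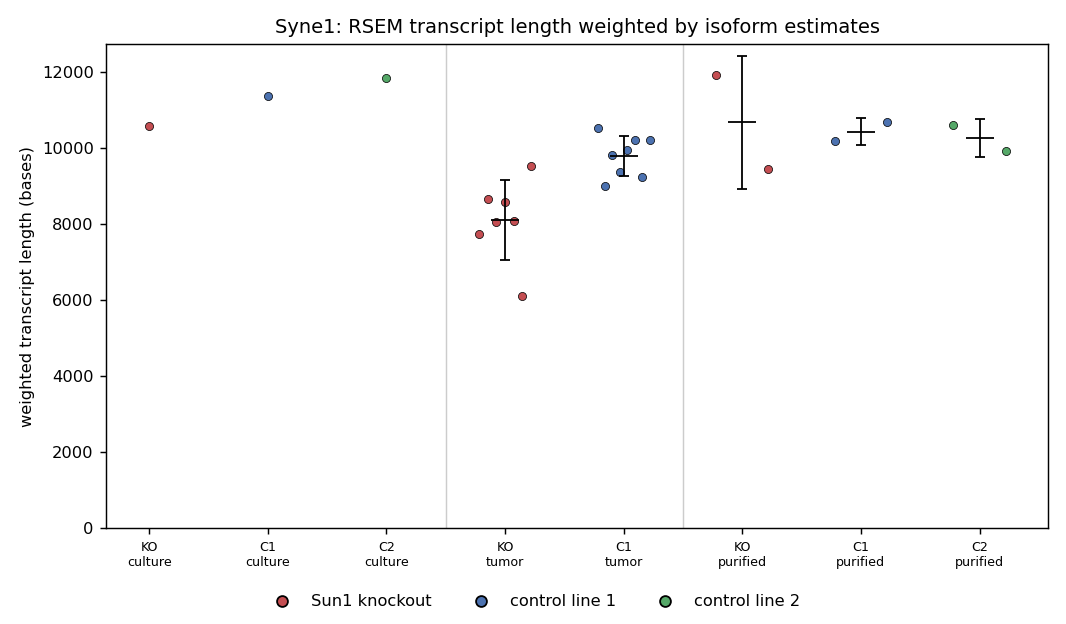
Weighted transcript length of Syne1 in bases (vertical axis), 1 point per library, by group, with mean ± SD; KO is the knockout, C1 and C2 the control lines. Knockout tumors ran from 6116 to 9517 bases against 8994 to 10522 bases in control tumors, and purified and cultured cells stood between 9426 and 11897 bases.

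The remaining mammalian SUN and KASH genes were nearly silent, with 1 exception. Sun3 was at 0 in all libraries and Sun5 reached at most 0.0462 CPM. Syne4, which encodes the kinesin-binding nesprin-4, reached at most 0.576 CPM, and Ccdc155, which encodes the meiotic protein KASH5, at most 0.854 CPM. Lrmp, which encodes a KASH-type membrane protein of lymphoid cells, had 8.55, 11.6 and 17.6 CPM at its lowest, median and highest in knockout tumors, against 5.22, 7.32 and 10.96 CPM in control tumors, and at most 0.527 CPM in cells. It was higher in knockout tumors by 0.64 ± 0.18 on the log2 scale (edgeR adjusted p = 0.00957), the groups overlapping. The leukocyte sum given above also had a higher median in knockout tumors, 699 CPM against 527 CPM, with ranges that overlapped. Its relation to Lrmp was not tested.

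Of 21 genes whose products bind or regulate the LINC complex, among them emerin, torsins, motors and formins, 10 were lower in knockout tumors and 0 were higher, beside 19.0% and 18.1% of all genes tested, at a median log2 fold change of -0.20 beside 0.01 over all genes. Those with the smallest p were Fhod3, Klc1, Ndel1 and Tmem201. Fhod3, a formin of muscle, was scarce, with 0.101 ± 0.113 CPM in knockout tumors and 1.02 ± 0.492 CPM in control tumors (SD, n = 7 and 8). Klc1, a kinesin light chain, was at -0.22 ± 0.05 on the log2 scale (edgeR adjusted p = 0.00145), Ndel1, a dynein regulator, -0.35 ± 0.08 (0.00222), and Tmem201 (Samp1), an inner membrane protein, -0.29 ± 0.07 (0.00288). In purified cells edgeR called 0 of 20 tested. Of the 20, 4 had an unadjusted p under 0.05, beside 21.8% of all genes. DESeq2 called 3, all higher, beside 4.69% of all genes called higher by DESeq2. EdgeR called 3 as higher and 1 as lower against control line 1 alone, beside 10.96% and 12.8% of all genes. It called 5 as higher and 2 as lower against control line 2 alone, beside 10.2% and 8.85%. With no filter on low counts it called 1 as higher, beside 2.26%. In culture both tools called 0 of 20, 1 with an unadjusted edgeR p under 0.05. In 1 fit of all 24 libraries some of the 21 passed as lower in culture, with the lone cultured libraries taken to vary like the others. These calls are not counted here, as no spread was measured within a cultured group. The smallest p in purified cells belonged to Kif5b, a kinesin heavy chain, at 0.40 ± 0.10 (edgeR adjusted p = 0.0611). Between control lines 2 and 1 in purified cells 2 of 20 were called, both lower, beside 7.35% of all genes. They were Macf1 at -0.63 ± 0.12 (edgeR adjusted p = 0.00849) and Tor1aip1 at -0.50 ± 0.10 (0.0128). Control line 2 is in the purified cells and not in the tumors, so line and setting are mixed in the next comparison. The tumor effect minus the purified effect was called for 4 of 21, Tor1aip1, Dync1h1, Klc2 and Kif5b, all lower in tumors, beside 4.63% of all genes. This count was 1 and 0 without knockout purified replicates 1 and 2, 2 with no filter on low counts and 2 with control line 1 as the only control. Over all genes 2.11% were called lower in that test with no filter and 5.27% with control line 1 as the only control. In tumors fitted with the Ptprc and Pecam1 covariate, which ran with genotype, 0 of the 21 were called, beside 1.14% of all genes as lower.

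Of 14 genes of the lamina, the inner nuclear membrane and the nuclear pore, 3 were lower in knockout tumors and 0 were higher, at a median log2 fold change of -0.02. A share of 3 in 14 is near the 19.0% of all genes called lower there. With the Ptprc and Pecam1 covariate, which ran with genotype, 0 of the 14 were called, beside 1.14% of all genes as lower. The 3 were Tpr, a nuclear basket protein, at -0.28 ± 0.06 (edgeR adjusted p = 0.000767), Ankle2, a LEM domain protein, at -0.26 ± 0.07 (0.00603), and Lmnb2, lamin B2, at -0.18 ± 0.06 (0.0283). In purified cells edgeR called 0 of 14, with 1 at an unadjusted p under 0.05, and in culture 0 of 14, with 2 at that p, and DESeq2 called 0 in both. At that p stood 21.8% of all genes in purified cells and 659 of 12175 in culture. In 1 fit of all 24 libraries some of the 14 passed as lower in culture, with the lone cultured libraries taken to vary like the others. These calls are not counted here, as no spread was measured within a cultured group. Against control line 1 alone 4 were lower in purified knockout cells, beside 12.8% of all genes, and against line 2 alone 1 was higher, beside 10.2% of all genes. Between control lines 2 and 1 in purified cells only Lbr was called, as lower (edgeR adjusted p = 0.0221), beside 7.35% of all genes. The tumor effect minus the purified effect was called for 0 of 14, for 3 as higher with DESeq2 (6.47% of all genes) and for 3 as higher with control line 1 alone (4.82%).

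Genes whose profile over the 8 groups was most like each gene were sought among 10541 with at least 5 CPM in 1 group mean, by the root mean square distance between profiles of mean log2 CPM, each centred on its mean. For Sun1 they were Usp11 (distance 0.28), Rpgr (0.33) and Dock11 (0.34), where Sun1's own spread around its mean was 0.88. GENCODE places all 3 on chromosome X, which holds 3.00% of the 10328 candidates with a known chromosome, and this was looked up after the 3 were known. For Sun2 they were Zfp395 (0.10), Slc35a2 (0.12) and Vmac (0.12), and for Spag4 Tmcc3 (0.16), Arhgap27 (0.19) and Uqcrq (0.20). For Syne1 they were Fam193b (0.12), Shprh (0.12) and Msantd2 (0.13), for Syne2 Mybl1 (0.10), Mbnl1 (0.13) and Zbtb8a (0.14), and for Syne3 Cyb5r3 (0.15), Evc (0.15) and Dguok (0.16). These distances are descriptions over 8 group means and carry no test.

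In the authors' deposited table for tumors, whose sign runs as control over knockout, Sun1 had a log2 fold change of 1.51, Sun2 0.46, Syne1 0.27, Syne2 0.50, Syne3 0.59 and Spag4 -0.50, with an adjusted p of 0.0855 for Spag4. In the authors' deposited table for purified cells Sun2 had 0.79 with an adjusted p of 4.27e-08. In the authors' deposited table for culture Sun1 had 1.70 with an adjusted p of 8.98e-07, and the other 5 had adjusted p-values of 0.230 or higher.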

How the data were processed

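Per the labels' protocols, mRNA was enriched from total RNA and sequenced on an Illumina platform. The submitters' processing notes name STAR, RSEM, FastQC and DESeq2 and the mm10 build. Tool versions are not given in the sources used here. Per the file headers, the authors deposited for each library RSEM's expected count per gene, TPM, FPKM (not used) and a transcript length in bases weighted by isoform estimates. Their comparison tables, per the file headers, hold log2 fold changes, standard errors, p-values and adjusted p-values. The tables are named as control against knockout, and Sun1 is positive in all 3, so the sign is read as control over knockout.

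The main test took expected counts rounded to integers into edgeR 4.0.16 (R 4.3.3). Genes were filtered with filterByExpr at a minimum count of 10 and a minimum total of 15, libraries were scaled with TMM, and the two-sided quasi-likelihood F test with robust dispersions was adjusted by Benjamini-Hochberg over all genes tested, at 0.05. The SE was derived from the fold change and F. Each comparison used its own libraries; both control lines formed 1 arm in cells. Printed CPM values use TMM factors over all 24 libraries. Log2 length was tested with limma 3.58.1 (trend, robust). Alternatives included DESeq2 1.42.0, no filter, leaving out libraries, single control lines, a host covariate and replicate blocks. The edgeR and limma fits were tested on simulated data with known changes. The simulated expression changes were larger than those found for Sun2, Spag4 and the nesprins, with the same dispersion in every gene. The simulation does not show how well smaller or more variable changes are found.

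The genes, gene lists and tests were chosen with earlier results of these data known. Named genes are the 6, up to 4 of each list with the smallest p per main comparison, genes counted in a call of 5 or fewer, and the 3 nearest profiles, leaving out predicted models and pseudogenes. In culture 1 knockout library is assumed to vary like the controls. Same-numbered knockout and control tumors correlated in their deviations at -0.21 to 0.32, and purified libraries at 0.01 and -0.02, so numbers were not taken as pairs. Libraries of 1 group differed by a chi-square of at least 7.38 per gene, where repeated counting of 1 library gives about 1. All 24 libraries were mapped, and 0 columns were left unmapped. Loci and coding sequences are from GENCODE M21 on GRCm38.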

Additional observations from a re-analysis of the deposited data

Results flagged for a closer look

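The weighted transcript length of Sun1 was 3900 bases in knockout tumor replicate 6, far from the 4062 bases or more of the other knockout tumors. That of Sun2 was 3743 bases in the same library, against 3779 bases or more in the other 6. Each stands apart by Dixon's criterion among 22 groups of values examined, and chance alone sets apart about 1 in 20 groups. The library as a whole stood apart from the other knockout tumors: its mean log2 length over 8494 genes deviated by -0.0023 from the mean of all libraries, against 0.0054 to 0.0080 in the other 6 knockout tumors. Its counts differed from theirs by a chi-square of 25.5 to 34.8 per gene, where those 6 differed among themselves by 7.38 to 17.2 and control tumors by 8.31 to 44.3. The same library had the lowest CPM of Sun1, Sun2, Syne1, Syne2 and Syne3 and the shortest Syne1 among the knockout tumors, and all 5 tumor calls held without it, at -1.60 for Sun1, -0.51 for Sun2, -0.23 for Syne1, -0.45 for Syne2 and -0.58 for Syne3. The Syne1 length difference in tumors was -0.21 without it (limma adjusted p = 0.0559).

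The knockout effect on Syne1 differed between whole tumors and purified cells by -0.47 on the log2 scale, by the interaction test given above.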

How the results depend on the processing

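Of 681 results for the 6 genes under alternatives, 624 kept their direction and their side of the threshold, 11 kept their direction in culture fits with 1 library a group, which have no test, 22 kept their direction and lost their call, 12 kept their direction and gained one, and 12 changed sign, 11 of them not called either way and 1 with no test. The sign changes came from leaving out 1 library, over which the knockout effect on Syne1 in culture ran from -0.12 to 0.060, control line 2 over line 1 from -0.20 to 0.10 for Syne3, tumors over purified cells from -0.062 to 0.14 for Syne2 in the knockout and from -0.22 to 0.071 for Sun1 in control line 1, and the interaction from -0.27 to 0.083 for Spag4. For log2 length in purified cells the ranges were -0.0043 to 0.0012 for Sun1, -0.13 to 0.20 for Syne1 and -0.00064 to 0.00043 for Syne3. Counts of called genes that moved by over 1.5 times are given here. Knockout tumors: 196 with the Ptprc and Pecam1 covariate. Purified knockout effect, 568 as tested: 908 with no filter, 1205 with DESeq2, 2896 against control line 1 alone, 2322 against control line 2 alone, and 72 to 540 leaving out 1 library. Culture, 0 as tested: 95 with no filter, 44 with DESeq2, 654 in 1 fit of all 24 libraries. Control line 2 against line 1, 1508 as tested: 2267 with no filter, and 999 to 2319 leaving out 1 library. Interaction, 1249 as tested: 1881 with DESeq2, and 254 to 1353 leaving out 1 library. Length in tumors, 61 as tested: 100 at a TPM of at least 1 in every library, and 13 to 219 leaving out 1 library. Length in purified cells, 1 as tested: 0 at that TPM, and 0 to 41 leaving out 1 library. With a replicate block, which the labels do not ask for, 303 genes were called in purified cells, 1 by length in tumors and 0 by length in purified cells, and no call of the 6 genes changed; no knockout tumor correlated best with its own number. The cause of these changes was not tested. In culture, Sun1 passed with no filter (edgeR adjusted p = 1.89e-05), with DESeq2 and in the fit of all libraries (1.97e-08), where Syne3 passed too (0.0207). Spag4, with 12 to 54 expected counts per library, had the largest SE of the 6 in each knockout comparison, 0.30 to 0.63.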
